A study of Mus musculus with 34 samples.

Results

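The genes described here are the mouse Wnt ligands, their receptors, and a small set of nuclear effectors and targets of the pathway. They number 36 of the 21627 protein-coding genes of the mm10 reference table. There are 19 Wnt genes, 12 receptor genes (10 Frizzled genes, Lrp5 and Lrp6) and 5 genes named as nuclear factors or targets (Lef1, Tcf7, Axin2, Dkk1 and Sp5). The genes were chosen by name, with earlier results of these data known. Around each gene, all ATAC-seq summits inside its annotated interval or within 50 kb of either end were counted in 19 deposited lists. A summit is the base of highest signal in a peak of open chromatin, where the Tn5 transposase inserts most often.

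The study induced Etv2, a transcription factor of the endothelial and blood lineages, in mouse embryonic fibroblasts (MEFs) and in embryoid bodies (EBs, aggregates of differentiating embryonic stem cells), and profiled 34 samples in 17 groups of 2. All MEFs are labelled iHA-Etv2, a doxycycline-inducible tagged Etv2. Without knockdown, MEFs were profiled uninduced at day 0 and after doxycycline at days 1, 2 and 7, with a further day 7 group marked Flk1-positive (Flk1, encoded by Kdr, is a receptor of endothelial progenitors). MEFs with Brg1 knockdown were profiled at day 0 without doxycycline and at days 1, 2 and 7 with and without it. Brg1 is the ATPase of the SWI/SNF chromatin remodelling complex, and the knockdown reagent is not named in the labels. EBs labelled 12 h were uninduced, induced, or induced and marked Flk1-positive. Brg1-floxed EBs at day 4 were all labelled as given doxycycline, with or without 4-hydroxytamoxifen (4OHT), so they have no uninduced control, and the recombinase is not named in the labels. The inducible line of the EBs is not given in the sources used here. Groups other than the Flk1-positive ones carry no such mark, and how those cells were gated is not stated.

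Wnt proteins are secreted, lipid-modified ligands that bind a Frizzled receptor together with the co-receptor Lrp5 or Lrp6. In the canonical branch this stabilises beta-catenin, which enters the nucleus and joins the TCF/LEF factors, among them Lef1 and Tcf7, on target genes. Axin2 and Dkk1 are targets that feed back as inhibitors, and Sp5 is a target that encodes a zinc finger repressor. In differentiating embryonic stem cells, Wnt signalling is known for driving the primitive streak and the mesoderm from which Flk1-positive progenitors arise.

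The 15 groups of MEFs and 12 h EBs have 1 pooled list each, and the 4 Brg1-floxed samples have 1 list each. A pooled list has no spread between replicates, so no p-value is given for these groups, and the labels do not say whether replicates were separate cultures. The lists held between 11188 and 85498 summits: 18418 to 62028 in the 5 MEF lists without knockdown, 11188 to 44493 in the 7 knockdown lists, 58004 to 85498 in the 3 EB lists at 12 h and 17946 to 31436 in the floxed lists. Read depth was not analysed, so list length is the only stand-in for it here, and it may differ for other reasons too. The summit names in knockdown and floxed lists carry folder names of their own, and no peak has more than 1 summit in the floxed lists. The labels name no processing run. Knockdown against none, and floxed against other EBs, cannot be told apart from differences in processing that may go with these folders. Brg1 itself could not be checked, since a summit list does not measure its level. Markers were checked against the labels: 10 fibroblast genes had 83 summits in uninduced MEFs and 70 in uninduced EBs, with 6 and 5 of 7 listed starts open, so this list hardly separates the lists of the cell types. The listed starts of 8 of 8 pluripotency and early mesoderm genes held a summit in uninduced EBs against 1 of 8 in uninduced MEFs. The fibroblast genes had 4 summits at day 7 and 24 in day 7 Flk1-positive MEFs. The 10 endothelial genes had 62 in uninduced MEFs, 10 at day 7 and 28 in day 7 Flk1-positive MEFs. Fewer summits near a gene can come from a shorter list or from fewer cells with the site open, and these cannot be told apart.

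The following promoters show the kinds of gene that the counts below separate. Sp5 and Dkk1 are targets, and Fzd10 a receptor, whose start sites held a summit in all 3 EB lists at 12 h and in 0 of 12 MEF lists. Lef1 is a nuclear factor with 4 listed starts, and 9 MEF lists held a summit at 1 or more of them as well. Not all of these were at the first start, shown here. In uninduced and day 1 MEFs a summit lay 956 and 620 bp after that start. In day 2 and day 7 Flk1-positive MEFs it lay instead at -514 and -527 bp from the start at chr3:131112791. The 250 bases before the start site are shown 5′ to 3′ on the coding strand, from RefSeq's table of the GRCm38.p6 build (mm10): Sp5 at chr2:70474673-70474922 (plus strand), Dkk1 at chr19:30549497-30549746 (minus strand), Fzd10 at chr5:128600856-128601105 (plus strand) and Lef1, for the first of its 4 listed starts, at chr3:131110047-131110296 (plus strand). Capitals mark CTTTGA or its reverse complement TCAAAG, the core of the TCF/LEF binding motif.
Sp5: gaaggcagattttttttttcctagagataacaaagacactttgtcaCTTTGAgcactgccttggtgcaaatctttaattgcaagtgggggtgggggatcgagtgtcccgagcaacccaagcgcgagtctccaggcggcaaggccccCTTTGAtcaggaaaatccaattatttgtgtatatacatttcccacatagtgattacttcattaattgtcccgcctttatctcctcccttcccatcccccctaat
Dkk1: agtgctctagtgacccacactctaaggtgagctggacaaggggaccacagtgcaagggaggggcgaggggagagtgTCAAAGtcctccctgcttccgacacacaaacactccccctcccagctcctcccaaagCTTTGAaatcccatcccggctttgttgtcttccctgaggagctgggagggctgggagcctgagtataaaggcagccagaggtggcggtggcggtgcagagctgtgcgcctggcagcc
Fzd10: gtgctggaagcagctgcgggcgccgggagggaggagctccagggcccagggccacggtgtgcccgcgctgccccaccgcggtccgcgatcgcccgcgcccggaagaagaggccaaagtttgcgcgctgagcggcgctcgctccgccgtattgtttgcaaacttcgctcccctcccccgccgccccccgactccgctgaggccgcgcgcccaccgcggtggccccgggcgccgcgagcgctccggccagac
Lef1: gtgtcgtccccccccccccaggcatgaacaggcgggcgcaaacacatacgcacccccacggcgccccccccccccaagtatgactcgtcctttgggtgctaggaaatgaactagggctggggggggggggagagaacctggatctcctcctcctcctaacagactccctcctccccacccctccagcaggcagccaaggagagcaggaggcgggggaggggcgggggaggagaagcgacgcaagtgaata
The core occurred at -204 and -104 from the Sp5 start and at -174 and -117 from the Dkk1 start, counted to the first base of the match. It was not in the upstream sequence shown for Fzd10 or Lef1. Both strands were searched in windows from 250 bases before to 50 bases after every listed start: 6 of the 33 windows of members held the core (1 each of Dkk1, Fzd1, Lef1, Sp5, Wnt5b and Wnt11), near the 16% of all 32851 windows that did. The ETS motif CCGGAAGT (reverse complement ACTTCCGG), of the family to which Etv2 belongs, was in 3.89% of windows and in that of 1 member, Tcf7. A match is a description of letters and not a binding site. At Sp5, the summit at the start lay 62 bp after the start site in uninduced EBs, 140 bp in induced EBs and 158 bp in Flk1-positive EBs. At Dkk1, the uninduced EB summit lay 83 bp after the start. At Fzd10, the uninduced EB summit lay at -520 bp from the start, outside the sequence shown. No MEF list held a summit within 1 kb of any of these 3 starts.

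All 36 genes had at least 1 summit within 50 kb in each of the 3 EB lists at 12 h, and 35 of 36 did in uninduced MEFs. In uninduced MEFs the ligand genes held 101 summits, the receptor genes 68 and the nuclear factors and targets 22. In uninduced EBs they held 149, 81 and 58. As a share of the list, the ligands took 0.163% in uninduced MEFs and 0.174% in uninduced EBs, and the receptors 0.110% and 0.0947%. Such a share divides by list length but may still vary with it. Over all members it was 0.308% in uninduced MEFs and 0.107% in the shortest list, of knockdown MEFs at day 7 without doxycycline. The part of list length in this was not tested. The nuclear factors and targets took 0.0355% (exact Clopper-Pearson 95% interval 0.0222% to 0.0537%) and 0.0678% (0.0515% to 0.0877%). Only this last class therefore had a share above the upper bound of its MEF interval in the EB list, and these intervals cover counting error alone. Their share lay between 0.0641% and 0.0707% in the 3 EB lists, between 0.0692% and 0.0923% in the 4 floxed EB lists, and between 0% and 0.0355% in the 12 MEF lists. The share of 0% was that of knockdown MEFs at day 7 without doxycycline, where 0 of 11188 summits allow a share of up to 0.0330%. Ligand shares separated too, at most 0.163% in MEF lists and at least 0.174% in EB lists, whereas receptor shares overlapped. How many other gene sets separate this way was not counted, and most MEF lists are shorter than the 3 EB lists at 12 h. In uninduced MEFs 19.4% of the summits counted lay within 1 kb of the start of another gene, and in uninduced EBs 18.8% did, so a summit near a member need not belong to it. Paired Wnt genes that lie next to each other share most of their window: Wnt1 with Wnt10b, Wnt6 with Wnt10a, Wnt3 with Wnt9b, and Wnt3a with Wnt9a. Their counts are not independent.

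**Figure D1:**
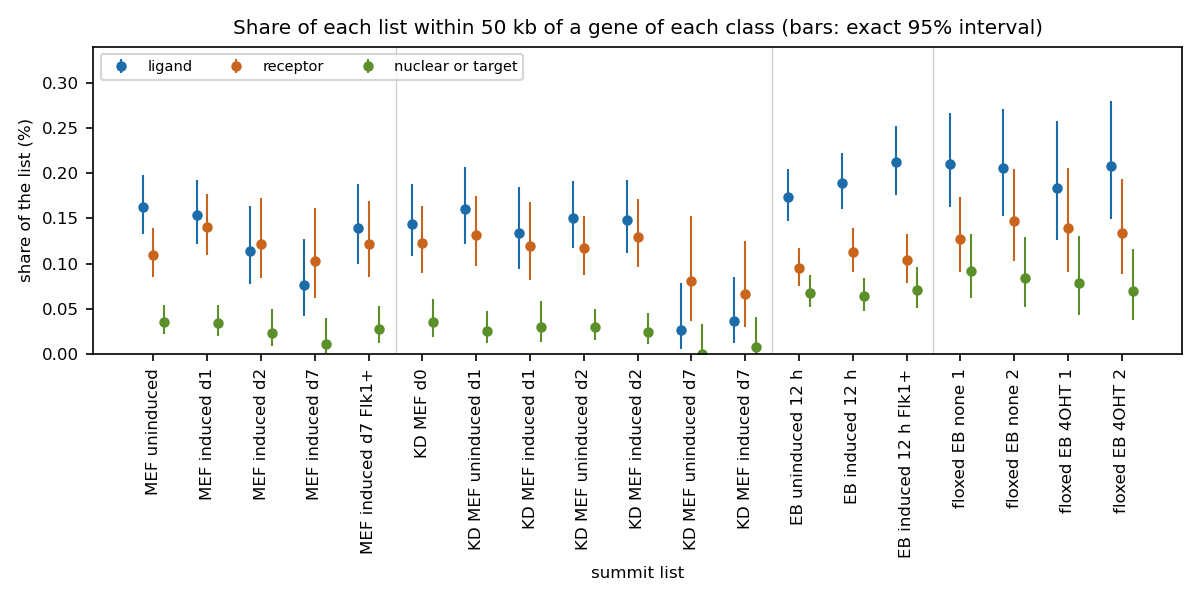
Share of each summit list (%, vertical axis) that lies within 50 kb of a ligand, receptor, or nuclear factor or target gene, for the 19 lists; bars are exact 95% intervals and cover counting error only. The nuclear factors and targets stay at or under 0.0355% in the 12 MEF lists and at or above 0.0641% in the 7 EB lists. The ligands also separate, at or under 0.163% and at or above 0.174%.

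**Figure D2:**
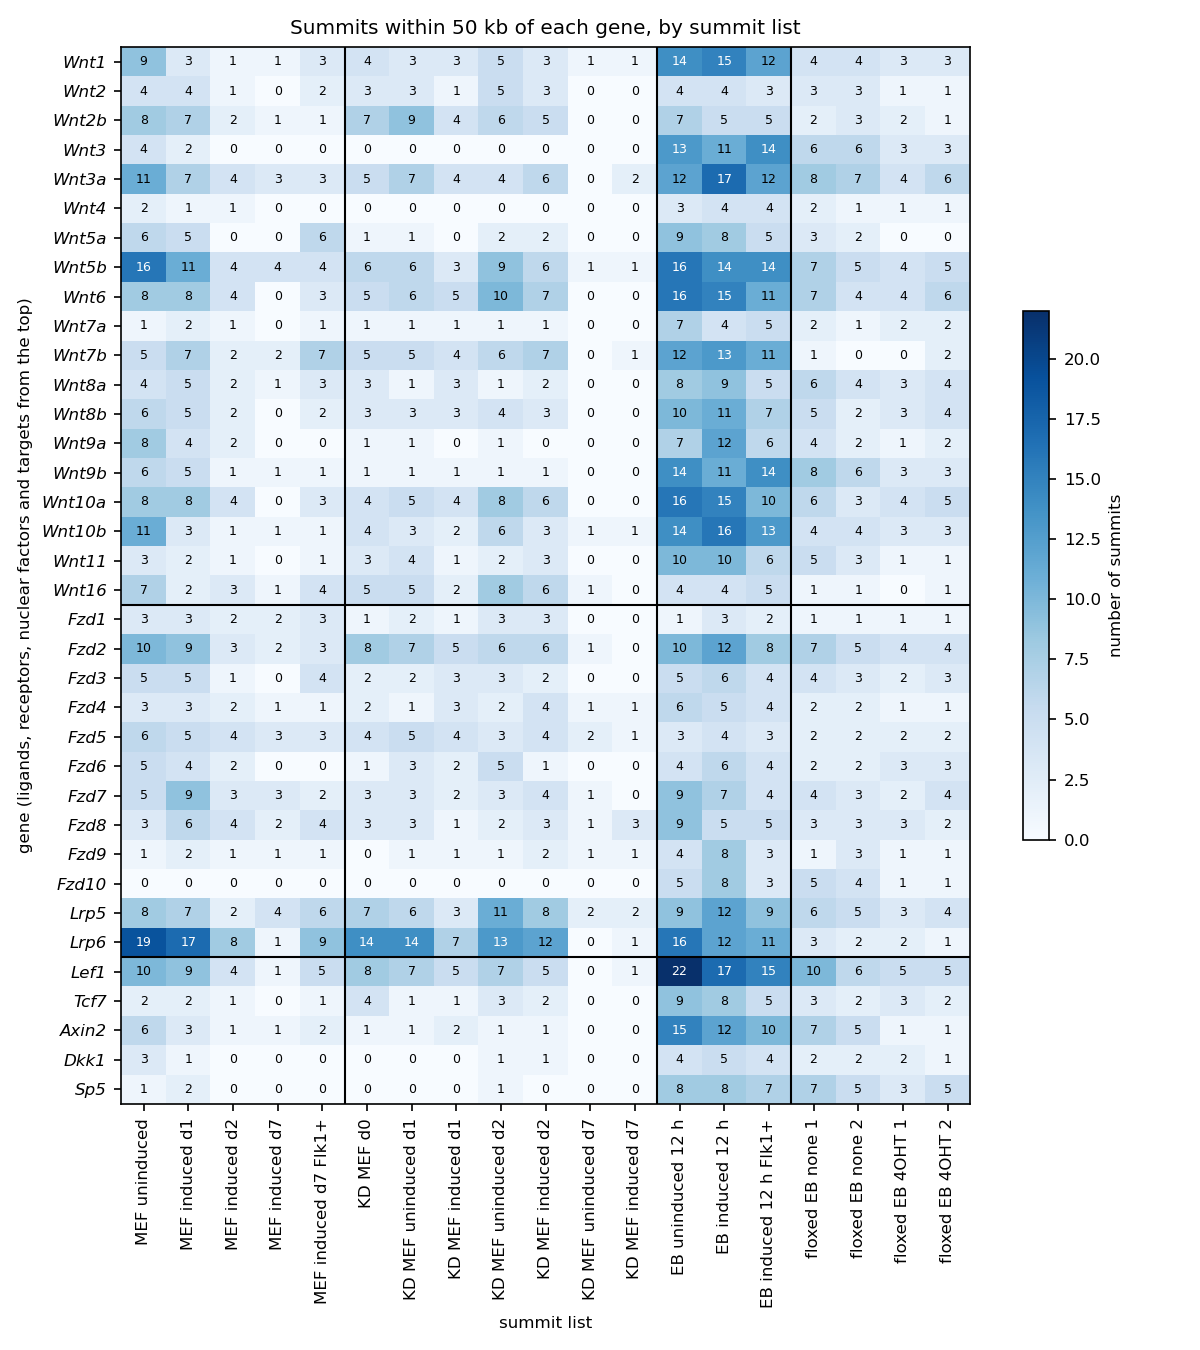
Number of summits within 50 kb of each of the 36 genes (vertical axis) in each of the 19 lists (horizontal axis). Fzd10 is at 0 in all 12 MEF lists, and Lef1 has the highest count, 22, in uninduced EBs.

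The first comparison sets uninduced EBs at 12 h against uninduced MEFs. It is a contrast of cell types and not of a treatment, and the EB list is longer. A summit was called gained when the MEF list had none within 250 bp and lost in the reverse case. A gene was called higher or lower when gained minus lost was at least 2 in size. Genes with more summits can reach this net more easily. The shares of all genes given beside such calls, here and below, are not matched for summit count. Among the nuclear factors and targets 4 of 5 were higher and 0 lower, with a median of 7 more summits, against a median of 1 over all protein-coding genes. Of the 36 members, 21 (58.3%) were higher against 45.6% of all genes, and 4 (11.1%) were lower against 19.7%. With the EB list cut to the length of the MEF list by score, 15 members were higher and 11 lower, beside 27.7% and 31.1% of all genes. Among nuclear factors and targets 4 of 5 were still higher there, with a median of 5 against 0 over all genes.

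Lef1, a TCF/LEF factor that binds beta-catenin, had 10 summits in uninduced MEFs and 22, 17 and 15 in uninduced, induced and Flk1-positive EBs. In the other MEF lists without knockdown it had 9, 4, 1 and 5 at day 1, day 2, day 7 and in day 7 Flk1-positive cells, and in the knockdown lists 0 to 8. Between uninduced EBs and MEFs, 18 summits were gained and 6 lost. Axin2, a scaffold of the beta-catenin destruction complex, had 6 summits in uninduced MEFs, 0 to 3 in the other 11 MEF lists, and 15, 12 and 10 in the EB lists, with 13 gained and 4 lost. Sp5 had 1 summit in uninduced MEFs, 2 at day 1, 1 in uninduced knockdown MEFs at day 2 and 0 in the other 9 MEF lists, against 8, 8 and 7 in EBs. Its comparison of uninduced EBs with uninduced MEFs had 7 gained and 0 lost. Tcf7, the other TCF/LEF factor of the set, had 2 summits in uninduced MEFs, 0 to 4 in the other MEF lists, and 9, 8 and 5 in EBs (9 gained, 2 lost). Dkk1, a secreted inhibitor that binds Lrp5 and Lrp6, had 3 in uninduced MEFs, 0 or 1 in the other MEF lists, and 4, 5 and 4 in EBs. Its 4 gained and 3 lost summits made no call. The net of Lef1, Axin2, Sp5 and Tcf7 stayed at 3 or more under all 6 alternative settings, between 6 and 12 for Lef1, 4 and 10 for Axin2, and 3 and 7 for both Sp5 and Tcf7.

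Of the receptors, 5 of 12 were higher and 3 lower. Fzd10 had 0 summits in each of the 12 MEF lists and 5, 8 and 3 in uninduced, induced and Flk1-positive EBs. Fzd8 had 3 in uninduced MEFs and 9 in uninduced EBs, with 7 gained and 0 lost, and Fzd4, a receptor also known for its role in retinal vessels, had 5 gained and 1 lost. Fzd5 had 1 gained and 4 lost (a net of 1 within 10 kb), and Fzd1 0 gained and 2 lost. Lrp6 was rich in summits in both cell types, 19 in uninduced MEFs and 16 in uninduced EBs, but at different places: 11 were gained and 14 lost. Of the 31 merged regions around Lrp6 over all lists, 18 were found in MEF lists only and 5 in 12 h EB lists with no MEF list. The region at chr6:134473247-134473447 inside Lrp6 was in 9 MEF lists and no EB list, whereas chr6:134515604-134516034, also inside the gene, was in all 3 EB lists at 12 h and no MEF list. The call of Lrp6 depended on the setting: its net of -3 became 1 with summits of score 10 or more.

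Among the 19 ligands, 12 were higher and 1 lower, with a median of 4 on the full lists and -1 on lists of equal length (8 higher, 7 lower). Wnt3, which is needed for the primitive streak, had 4 summits in uninduced MEFs, 2 at day 1 and 0 in the other 10 MEF lists, against 13, 11 and 14 in uninduced, induced and Flk1-positive EBs. Its gained and lost counts were 10 and 1 on the full lists, and 9 and 1 on lists of equal length. Wnt6 and Wnt10a, neighbours on chromosome 1, each had 11 gained and 2 lost. Wnt16 had 2 gained and 4 lost, Wnt2b 4 and 5, and Wnt9a 5 and 6. Wnt5b, a ligand of the beta-catenin-independent branch, had 16 summits in each list, with 10 gained and 10 lost.

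**Figure D3:**
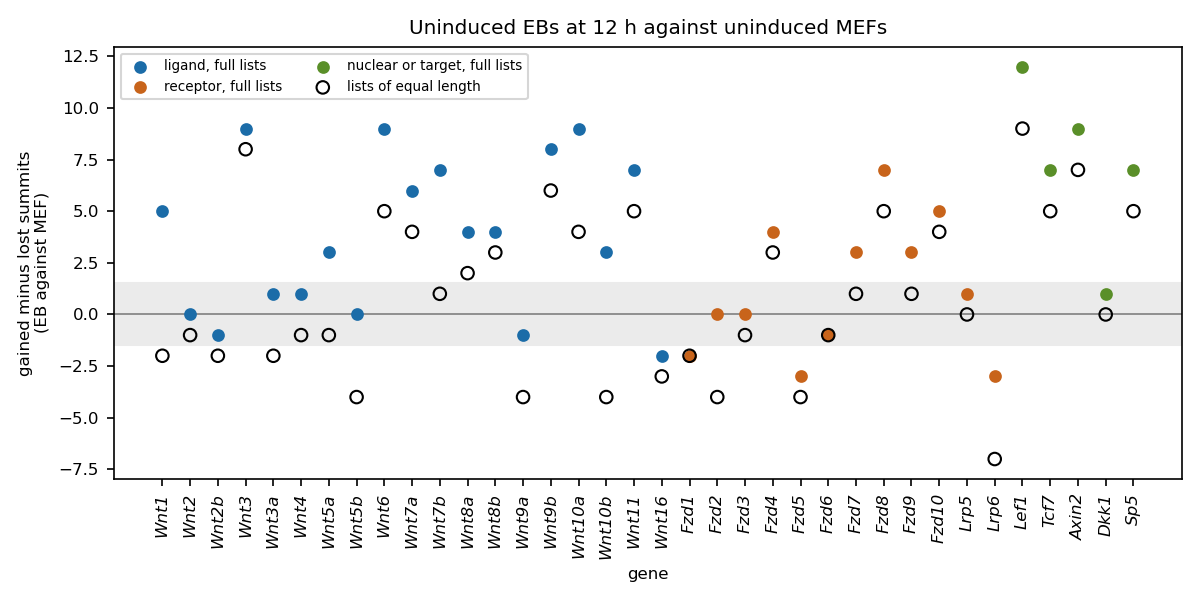
Gained minus lost summits of each gene (vertical axis) in uninduced EBs at 12 h against uninduced MEFs, filled points for the full lists by class and open circles for lists of equal length; the grey band holds genes that made no call. Lef1 at 12, Axin2 at 9, Sp5 at 7 and Tcf7 at 7 lie above the band in both, while 7 ligands are called lower on lists of equal length.

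The summits of all lists were merged into regions to compare their places. Of 79 regions around nuclear factors and targets, 63.3% (exact 95% interval 51.7% to 73.9%) were in a 12 h EB list and in no MEF list. The interval takes regions as independent, but they lie around 5 genes, 28 around Lef1 and 22 around Axin2. They also come from the same summits as the counts above. The share in a 12 h EB list and in no MEF list was 42.6% of 242 regions around ligands and 31.6% of 158 around receptors. Around all protein-coding genes it was 38.1% of 117886. At Axin2 the start itself was open in both cell types: the region chr11:108920273-108920682 held a summit in 10 of 12 MEF lists, all 3 EB lists and all 4 floxed lists. Other regions of the window were found in EB lists and in no MEF list, on both sides of the start. The upstream region chr11:108909617-108909929, whose uninduced EB summit lay at -10608 bp from the Axin2 start, had scores (-log10 q) of 67.9, 23.0 and 14.4 in uninduced, induced and Flk1-positive EBs, and chr11:108910780-108911175 had 25.8, 72.3 and 25.5. Downstream, chr11:108961756-108961831 had 39.1, 13.1 and 4.96. None of these 3 was in any MEF list. The upstream pair lies within 1 kb of the listed start of Gm46298. Scores grow with depth and are given to describe each list, not to compare lists.

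At Sp5 the start region chr2:70474985-70475291 had scores of 31.6, 22.4 and 11.5 in the 3 EB lists and was in no MEF list. An upstream region, chr2:70472010-70472245, scored 24.8, 20.8 and 3.67 in the same lists and was also in no MEF list. All summits near Sp5 in MEF lists lay in chr2:70509281-70509537, within 1 kb of the start of Erich2. Dkk1's start region, chr19:30549407-30549565, scored 60.9, 54.1 and 21.6 in EBs and was in no MEF list, while the region at chr19:30554473-30554815 was in both cell types (7.57 in uninduced MEFs, 54.9 in uninduced EBs). Fzd10's start region, chr5:128600498-128600959, scored 58.2, 62.8 and 20.1 in EBs. The highest-scoring region in the Lef1 window, chr3:131271569-131272371, lies at the start of the neighbouring gene Hadh, and that of the Tcf7 window, chr11:52231771-52232142, at the start of Skp1. Lef1's own first start, chr3:131109903-131110597, scored 16.7, 11.1 and 3.80 in EBs and 2.98 in day 0 knockdown MEFs.

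**Figure D4:**
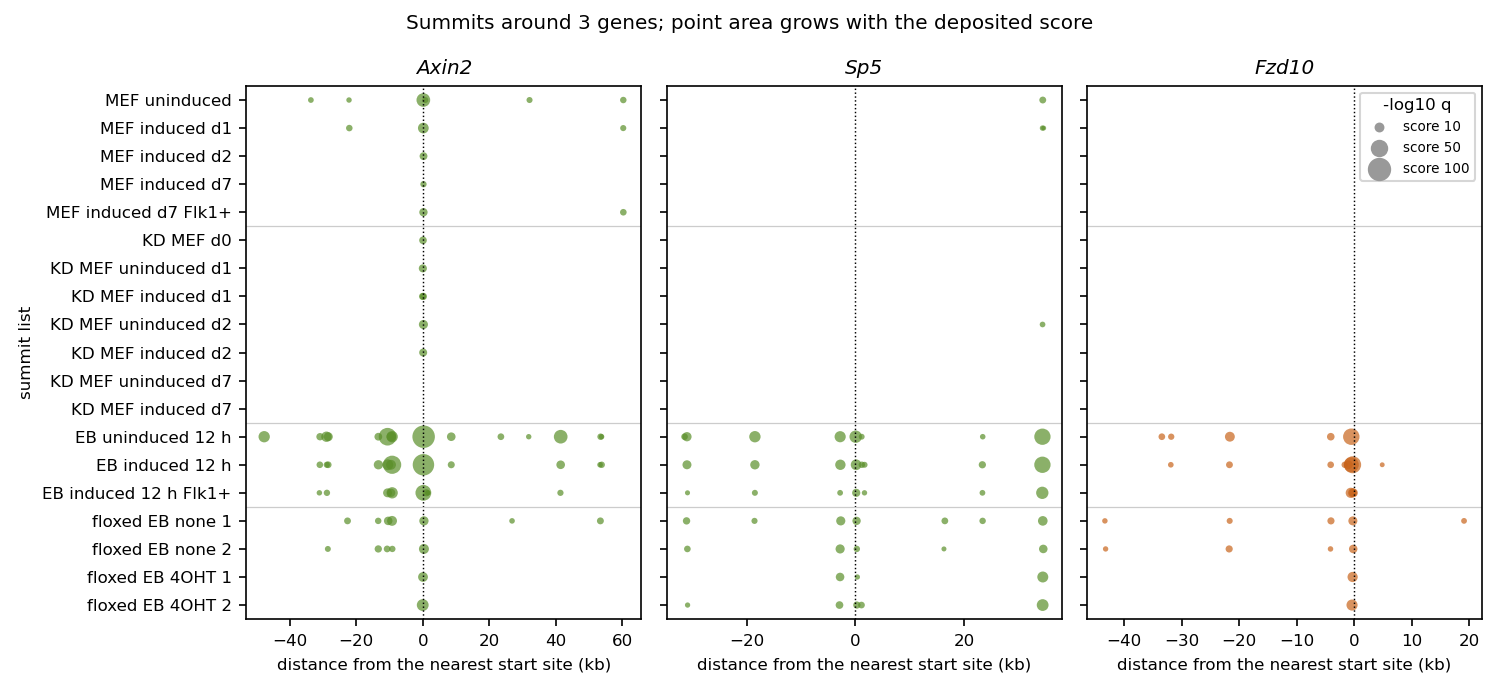
Summits around Axin2, Sp5 and Fzd10 by distance from the nearest start site (kb, horizontal axis) in each of the 19 lists (vertical axis), with point area growing with the deposited score (-log10 q). Axin2's start is shared by MEF and EB lists, while the Sp5 and Fzd10 starts are in EB lists only.

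A start site was listed for 26 of the 36 genes. In uninduced MEFs 14 of these 26 held a summit within 1 kb of a start, against 57.1% of the 17273 protein-coding genes with a listed start. In uninduced EBs 24 of 26 did, against 67.4%. By class, 7 of 15 ligands, 5 of 6 receptors and 2 of 5 nuclear factors and targets had one in uninduced MEFs, and 13, 6 and 5 in uninduced EBs. A summit at the start in all 3 EB lists at 12 h and in no MEF list was found for 7 genes, against 8.12% of all genes with a listed start: Wnt3a, Wnt4, Wnt7a, Wnt9b, Fzd10, Dkk1 and Sp5. A further 3 genes, Wnt1, Wnt3 and Tcf7, had it in 1 MEF list. The opposite kind, a start open in at least 8 MEF lists and in no EB list at 12 h, was found for 0 of 26, against 0.203% of all genes. A start open in all 3 EB lists and in at least 8 MEF lists was found for Fzd1, Fzd4, Fzd5, Fzd7, Lef1 and Axin2, 6 of 26 against 46.7% of all genes. Of these 6 genes, 4 encode receptors. No ligand reached the cut of 8, but Wnt2 and Wnt5b were close to it, with 7 MEF lists and all 3 EB lists. Fzd4 and Fzd5 held a start summit in all 19 lists, as did 11.4% of all genes. Wnt8b had none in any list.

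In MEFs, the comparison of induced with uninduced cells asks which sites open or close as Etv2 acts. The control without knockdown is of day 0 only, so induction and days in culture cannot be told apart. In knockdown MEFs, the lists without doxycycline had 36730 summits at day 0 and 11188 at day 7. From day 2 on most member loci had fewer summits than uninduced cells, as did most genes, and the induced lists are shorter. Around the members 40 summits were gained and 76 lost at day 1, 10 and 133 at day 2, and 7 and 163 at day 7. At day 1, 2 members were higher, against 5.18% of all genes, and 11 (30.6%) were lower, against 32.5%. At day 2, 1 was higher against 0.957% and 26 (72.2%) lower against 64.6%, and at day 7, 0 were higher against 0.962% and 29 (80.6%) lower against 71.3%. On lists of equal length 4 members were higher and 4 lower at day 1 (12.2% and 13.8% of all genes). The counts were 2 and 5 at day 2 (9.07% and 13.3%), and 1 and 3 at day 7 (7.43% and 16.1%). Lower calls thus still outnumbered higher ones at days 2 and 7, as they did over all genes. These 3 comparisons share 1 control list.

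Wnt5b had 16 summits in uninduced MEFs, 11 at day 1 and 4 at days 2 and 7. Its net was -7, -12 and -12 on the full lists, but -1, 0 and 0 on lists of equal length. Wnt10b had 11 summits in uninduced MEFs, 3 at day 1 and 1 at days 2 and 7. Its neighbour Wnt1 had 9, 3, 1 and 1. Both were also lower at day 1 on lists of equal length, with a net of -6 for Wnt10b and -4 for Wnt1. Lrp6 had 19, 17, 8 and 1 summits at the same times, with a net of -2, -12 and -18 on the full lists and 1, 0 and -3 on lists of equal length. Fzd8 and Fzd7 were the 2 members called higher at day 1. Fzd8 had 3 summits in uninduced MEFs and 6, 4 and 2 at days 1, 2 and 7, with nets of 3, 2 and 0, and its day 1 net was also 3 on lists of equal length. Fzd7 had 5, 9, 3 and 3. With summits of score 10 or more the day 1 nets turned to -1 for Fzd8 and -2 for Fzd7. Lef1 lost 4 and gained 3 at day 1 (a net of 3 on lists of equal length), then lost 8 at day 2 and 9 at day 7 with none gained. Axin2 lost 3, 5 and 5 with none gained, and kept the summit at its start in all of these lists. None of these losses made a call on lists of equal length: the nets of Lef1 were -1 at days 2 and 7, and those of Axin2 -1, 0 and 0. Dkk1 had 3 summits in uninduced MEFs, 1 at day 1 and 0 later. The day 1 summit lay in the same merged region as an uninduced one, chr19:30554473-30554815, though more than 250 bp from it, so that it counted as both a loss and a gain.

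Day 7 Flk1-positive MEFs were compared with uninduced MEFs and with day 7 MEFs not so marked. Against uninduced MEFs, 1 member was higher and 25 (69.4%) lower, against 1.16% and 61.1% of all genes, and on lists of equal length 5 were higher and 5 lower, against 10.4% and 16.4%. Against day 7 MEFs without the mark, 13 (36.1%) were higher and 0 lower, against 34.0% and 1.96% of all genes, and on lists of equal length 6 and 3, against 12.0% and 6.95%. The member counts are thus near those of all genes. Wnt5a, the best known ligand of the beta-catenin-independent branch, had 6 summits in uninduced MEFs, 5 at day 1, 0 at days 2 and 7 and 6 in Flk1-positive cells. Of its 6 uninduced summits, 5 had a partner in the Flk1-positive list, and 0 of the Flk1-positive summits lacked one. Against day 7 MEFs without the mark the net of Wnt5a was 6 on the full lists and 1 on lists of equal length, and against uninduced MEFs it was -1 and 5. The part of list length in these counts was not tested. The scores of the Wnt5a summits in Flk1-positive cells were low, between 1.87 and 5.69. Lrp6 had 9 summits in Flk1-positive cells against 1 at day 7 without the mark, Wnt7b 7 against 2, and Lef1 5 against 1. Their nets were 8, 4 and 4 on the full lists, and 4, 0 and 1 on lists of equal length, where Wnt7b and Lef1 made no call. Sp5, Dkk1 and Fzd10 had 0 in both.

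In EBs at 12 h, induced cells had 286 summits around the members and uninduced cells 288, with 62 gained and 73 lost. Of the 36 genes, 7 (19.4%) were higher, against 13.8% of all genes, and 10 (27.8%) lower, against 22.2%. On lists of equal length 10 were higher and 9 lower, against 19.8% and 14.5%. No nuclear factor or target was higher, and Lef1 and Axin2 were lower. Lef1 had 22 summits in uninduced and 17 in induced EBs, with 3 gained and 8 lost, and Axin2 15 and 12, with 0 gained and 3 lost. On lists of equal length their nets were -4 and -3. Tcf7 (2 gained, 3 lost), Dkk1 (1 and 1) and Sp5 (1 and 1) made no call. Among receptors, Fzd9 had 4 summits in uninduced and 8 in induced EBs (3 gained, 0 lost), Lrp5 9 and 12 (3 gained, 0 lost) and Fzd1 1 and 3 (2 gained, 0 lost). Fzd8 went the other way, with 9 in uninduced and 5 in induced EBs (0 gained, 4 lost), as did Lrp6 with 16 and 12 (0 gained, 4 lost) and Fzd7 with 9 and 7 (0 gained, 2 lost, and -1 on lists of equal length). Of the ligands, Wnt3a, Wnt9a and Wnt10b each had a net of 2, and Wnt5b, Wnt7a and Wnt9b each had a net of -3. With 1 summit per peak, Wnt5b and Wnt9b turned to 2, and with scores of 10 or more Fzd9 turned to -1.

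Flk1-positive EBs had 224 summits around the members. Against uninduced EBs, 0 members were higher and 21 (58.3%) lower, against 3.89% and 44.9% of all genes. Against induced EBs without the mark, 2 were higher and 20 (55.6%) lower, against 2.53% and 38.9%. The Flk1-positive list is the shortest of the 3, and on lists of equal length the balance turned: 10 members were higher and 5 lower against uninduced EBs (19.4% and 12.0% of all genes), and 10 and 5 against induced EBs without the mark (13.7% and 9.96%). The higher calls there were mainly ligands, 7 higher and 1 lower in the first comparison and 9 and 2 in the second. These calls are not independent, since neighbours that share most of their window count separately. Wnt1 with Wnt10b, and Wnt3a with Wnt9a, were higher in both comparisons, and Wnt3 with Wnt9b in the second. Receptors were 0 higher and 3 lower in the second. Both comparisons share the Flk1-positive list. Wnt3 and Wnt9b, whose windows overlap, were the 2 members higher on the full lists: each had 14 summits in Flk1-positive and 11 in induced EBs, with 6 gained and 4 lost, and a net of 5 on lists of equal length. With 1 summit per peak, both nets were -3. Flk1-positive EBs had 4 Wnt3 summits within 1 kb of its start, the nearest at -124 bp with a score of 17.4. Fzd10 had 3 summits in Flk1-positive and 8 in induced EBs, with 0 gained and 6 lost, and -4 on lists of equal length. Lef1 had 2 gained and 10 lost against uninduced EBs, Axin2 3 and 8, and Tcf7 0 and 4. On lists of equal length the nets were -4, -2 and -1. Sp5 and Dkk1 kept nearly the counts they had in uninduced EBs, 7 against 8 and 4 against 4.

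In MEFs with Brg1 knockdown, induced cells were compared with uninduced cells of the same day. Around the members 11 summits were gained and 50 lost at day 1, 34 and 52 at day 2, and 7 and 4 at day 7. At day 1, 1 member was higher and 11 lower, against 3.34% and 25.2% of all genes. At day 2, 2 were higher and 11 lower, against 9.71% and 17.5%. At day 7, 2 were higher and 0 lower, against 6.78% and 3.4%. With lengths made equal, 2 were higher and 5 lower at day 1 (8.33% and 10.6% of all genes), 5 and 4 at day 2 (14.4% and 9.67%), and 1 and 1 at day 7 (3.62% and 6.14%), so the balance at day 2 turned. The day 7 lists are the shortest of the series, and only 12 and 15 of their summits lay near a member. Lrp6 had 14 summits in uninduced and 7 in induced knockdown MEFs at day 1, and 13 and 12 at day 2. Its net was -7 at day 1, on the full lists, and -6 on lists of equal length. Lef1 had 7 and 5 on both days (net -2 on each, and 3 and -1 on lists of equal length). Tcf7 had a net of 0 at day 1 and -2 at day 2, Axin2 0 on both days, and Dkk1 and Sp5 had at most 1 summit in any knockdown list. Wnt2b had a net of -4 at day 1 (-1 on lists of equal length), and Fzd6 of -4 at day 2 (-3). Wnt3a and Fzd8, at 2 each, were the 2 members higher at day 7, and on lists of equal length Fzd8 was at 1. Wnt3, Wnt4 and Fzd10 had 0 summits in all 7 knockdown lists.

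Day 0 knockdown MEFs were set against uninduced MEFs without knockdown, whose summit names also carry a different folder name. Of the 36 members, 1 was higher and 23 (63.9%) lower, against 2.31% and 48.1% of all genes, and on lists of equal length 9 were higher and 3 lower, against 15.9% and 11.0%. Wnt5b had 6 summits with knockdown and 16 without, Wnt10b 4 and 11, Wnt9a 1 and 8, Axin2 1 and 6, and Dkk1 0 and 3, of which Wnt9a alone was lower on lists of equal length (-4). Tcf7 was the member with more, 4 against 2, though with scores of 10 or more its net was -1. On lists of equal length Lef1 had a net of 4 and Lrp6 of 3, and Wnt5b and Wnt10b of 1 each, where on the full lists these genes had -2, -5, -10 and -7.

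The floxed EBs are the only samples with a list each, so their spread can be seen. Around the members the samples without 4OHT held 135 and 104 summits and those with 4OHT 72 and 83, or 120 ± 22 and 77.5 ± 7.8 (mean ± SD, n = 2 each). The 4OHT samples lay below the others for each class: 33 and 42 against 66 and 49 for ligands, 25 and 27 against 40 and 35 for receptors, and 14 and 14 against 29 and 20 for nuclear factors and targets. The smallest p that an exact two-sided permutation test of 2 against 2 can give is 0.333, and each class had that value. The whole lists differed the same way: the lists without 4OHT had 31436 and 23823 summits, those with it 17946 and 20229. The lists with 4OHT had 69.1% of the mean length of the others and 64.9% of the member summits. As a share of the list the members took 0.429% and 0.437% without and 0.401% and 0.410% with 4OHT, and the exact 95% intervals of the 4 shares overlap. The median score was 12.3 and 12.5 with 4OHT and 8.63 and 8.53 without. The part of list length and score in the result was not tested. With summits of score 10 or more, the mean difference over all members shrank from -42 to -9, and that of the ligands from -20 to -1. This cut lies above the median scores without 4OHT and below those with it. It removes a larger part of the lists without 4OHT, so the smaller difference is not an independent check.

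Both 4OHT samples lay below both others for 14 of 36 genes (38.9%), against 26.6% of all genes, and above them for 1, Fzd6, against 1.32%. In the samples without 4OHT the members had a median of 4 and 3 summits and all genes 3 and 2. The shares of all genes are thus not matched for summit count. The largest difference was at Axin2, where the samples without 4OHT had 7 and 5 summits and the 4OHT samples 1 each. The summit that all 4 samples shared was the one at the Axin2 start, with scores of 15.8 and 19 without and 18.1 and 28.2 with 4OHT. The upstream regions chr11:108909617-108909929 (12.8 and 6.58) and chr11:108910780-108911175 (18.6 and 5.35) were in both samples without 4OHT and neither with it, as was chr11:108906925-108906986 (5.63 and 8.26). Wnt9b had 8 and 6 summits without and 3 and 3 with 4OHT, and Wnt3, which shares its window, 6 and 6 and then 3 and 3. Fzd10 had 5 and 4 without and 1 and 1 with it, and the 1 left was at its start, with scores of 20.1 and 24.5 in the 4OHT samples. Lef1 had 10 and 6 without and 5 and 5 with 4OHT, Wnt11 5 and 3 and then 1 and 1, and Wnt5a 3 and 2 and then 0 and 0. Sp5 (7 and 5, then 3 and 5), Tcf7 (3 and 2, then 3 and 2) and Dkk1 (2 and 2, then 2 and 1) overlapped between the groups. Axin2 and Fzd10 thus had the same pattern, a start summit in all 4 samples and other summits only in those without 4OHT. They were not alone in keeping only a start summit with 4OHT. Fzd4 (2 and 2, then 1 and 1), Wnt4 (2 and 1, then 1 and 1) and Fzd9 (1 and 3, then 1 and 1) also did. The share of all genes with this pattern was not counted, and the lists with 4OHT are shorter.

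Over regions, 22 of the 171 around members (12.9%) were in both samples without 4OHT and neither with it, against 12.1% around all genes, which is near the background. The opposite pattern was found for 4 (2.34%), against 1.68%. By class the first pattern took 10 of 49 receptor regions (20.4%), 5 of 35 around nuclear factors and targets (14.3%) and 7 of 87 ligand regions (8.05%). Leaving out replicate 1 or replicate 2 of each group gave a difference of -21 and -63 in member summits, around -42 with both, so its size rests on which replicate is kept. The sample with the most member summits, replicate 1 without 4OHT, also has the longest list.

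**Figure D5:**
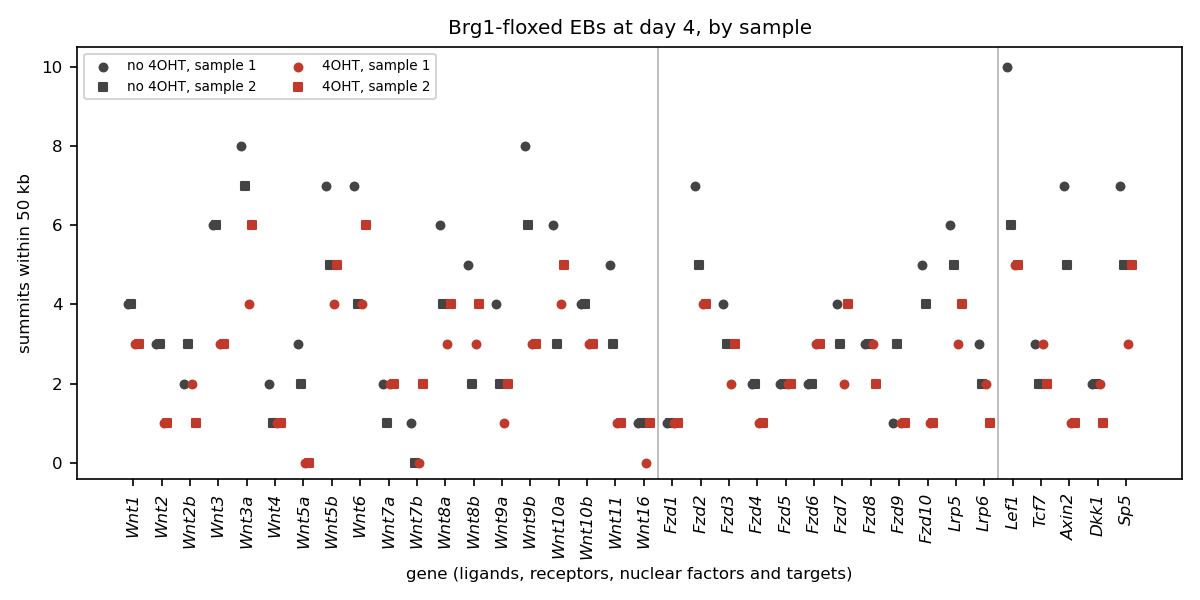
Summits within 50 kb of each gene (vertical axis) in the 4 Brg1-floxed EB samples at day 4, grey without and red with 4OHT, circles for replicate 1 and squares for replicate 2. At Axin2 and Fzd10 the 4OHT samples, at 1, lie under both others, which are at 5 or more for Axin2 and 4 or more for Fzd10.

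Another 53 genes of the pathway, from secretion factors to secreted inhibitors, destruction complex and nuclear cofactors, were counted the same way. They held 422 summits in uninduced MEFs, 103 at day 7 and 500 in uninduced EBs. In uninduced EBs against uninduced MEFs 29 of 53 (54.7%) were higher and 14 (26.4%) lower, against 45.6% and 19.7% of all genes, and on lists of equal length 13 were higher and 21 lower, against 27.7% and 31.1%. The highest were Tcf7l1, a TCF factor known as a repressor in embryonic stem cells (21 gained, 7 lost), Vangl2 of the planar polarity branch (9 and 0) and the beta-catenin cofactor Bcl9l (10 and 2). The lowest were Wls, the transporter that brings Wnt proteins to the cell surface (1 gained, 12 lost), the Wnt receptor Ryk (1 and 8) and the secreted inhibitor Sfrp1 (1 and 8). In induced MEFs 3 were higher and 27 (50.9%) lower at day 1, 0 and 45 (84.9%) at day 2, and 0 and 49 (92.5%) at day 7. Of all genes, 5.18%, 0.957% and 0.962% were higher on these days, and 32.5%, 64.6% and 71.3% lower. The 53 genes had a median of 8 summits in uninduced MEFs against 5 over all genes. The part of this in the calls was not tested. Tcf7l2 had nets of -8, -14 and -15. With lengths made equal, 8 were higher and 15 lower at day 1 (12.2% and 13.8% of all genes), 5 and 10 at day 2 (9.07% and 13.3%), and 4 and 12 at day 7 (7.43% and 16.1%). In Flk1-positive MEFs 0 were higher and 43 (81.1%) lower against uninduced MEFs, beside 1.16% and 61.1% of all genes. On lists of equal length 6 were higher and 9 lower, beside 10.4% and 16.4%. In induced EBs 14 (26.4%) were higher and 10 (18.9%) lower, beside 13.8% and 22.2% of all genes, and on lists of equal length 19 and 5, beside 19.8% and 14.5%. In Flk1-positive EBs 4 (7.55%) were higher and 30 (56.6%) lower against uninduced EBs, beside 3.89% and 44.9%, and on lists of equal length 15 and 7, beside 19.4% and 12.0%. Dkk2 was highest there (6 gained, 2 lost) and Tcf7l1 lowest (3 gained, 15 lost). In floxed EBs they had 246 and 212 summits without and 165 and 172 with 4OHT, and both 4OHT samples lay below both others for 23 genes (43.4%) and above for 1, against 26.6% and 1.32% of all genes.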

How the data were processed

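Tn5-tagged DNA of 34 samples was sequenced. Alignment with Bowtie2 2.2.4 to mm10 and peak calling with MACS2 (HOMER is also named) were done by the authors, per the submitters' processing notes. How replicates were pooled, duplicates, the Tn5 shift and blacklists are not given in the sources used here. The deposited score of each summit is a −log10 q value, per its file format and values (all at or above 1.3, a q value of 0.05), and grows with depth. Read depth was not analysed here.

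Summits on chromosomes 1 to 19 and X were counted within 50 kb of each gene interval of the GRCm38.p6 table. Summits of 2 lists matched within 250 bp, and a net of at least 2 made a call. The reference promoter table gave start sites (summit within 1 kb). It has none used here for Fzd2, Fzd3, Fzd6, Fzd8, Lrp5, Lrp6, Wnt5a, Wnt7b, Wnt8a and Wnt10a. With 1 list per group there is no test, and background percentages over all genes stand beside each count. They are not matched for summit count. Floxed samples allowed an exact permutation test. Intervals are Clopper-Pearson at 95% and cover counting error only. The 36 genes, the gene lists and the marker lists were chosen with earlier results of these data known. The text names, per comparison and class, up to 3 genes with the highest and up to 3 with the lowest net, plus Lef1, Tcf7, Axin2, Dkk1 and Sp5. Genes described for their place, their neighbour or the 4OHT samples were named after their values were seen. Other settings were a 10 kb window, scores of at least 10, 1 summit per peak, matches within 100 or 500 bp, a net of at least 1, starts within 500 bp, lists of equal length and each floxed replicate left out. The counting was tested on simulated lists. Counting used pandas 2.3.3 and numpy 2.4.6 under Python 3.11.15. Intervals came from scipy 1.17.1, plots from matplotlib 3.10.9.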

Additional observations from a re-analysis of the deposited data

Results flagged for a closer look

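Induction in MEFs at day 1 and in EBs at 12 h gave opposite signs for 5 of the 36 genes, a pattern shown by 6.57% of all protein-coding genes. Gained minus lost was -3 in MEFs and 2 in EBs for Wnt3a, -4 and 2 for Wnt9a, and -8 and 2 for Wnt10b. It was 2 in MEFs and -2 in EBs for Fzd7, and 3 and -4 for Fzd8. Wnt3a and Wnt9a share most of their window. The Flk1-positive groups against the uninduced ones gave opposite signs for 1 gene, Fzd8, at 2 in MEFs and -4 in EBs, against 3.39% of all genes. With 1 list per group these differences were not tested, and the MEF values of Fzd7 and Fzd8 turn negative with summits of score 10 or more.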

How the results depend on the processing

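No paired analysis was possible because each MEF and 12 h EB group has 1 pooled list, and the labels do not tie the replicate numbers of the 4 floxed samples across groups. Values run in the order of the report's comparisons where several are listed.

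Lists of equal length, made from the higher scores of the longer list, moved the most calls. The number of members called lower went from 11 to 4, 26 to 5, 29 to 3 and 25 to 5 in MEFs (days 1, 2 and 7, and day 7 Flk1-positive against uninduced), from 11 to 5 and 11 to 4 in knockdown MEFs at days 1 and 2, from 23 to 3 for knockdown against none, and from 21 to 5 and 20 to 5 in Flk1-positive EBs. The number called higher went from 13 to 6 in Flk1-positive MEFs against day 7 and from 2 to 1 in knockdown MEFs at day 7. The gained share of all gained and lost member summits became 51.1%, 39.5%, 27.3% and 51.9% in the 4 MEF comparisons with uninduced cells, 69.7% for Flk1-positive against day 7, 34.1% in knockdown MEFs at day 1, 59.2% for knockdown against none, 55.0% and 52.5% in Flk1-positive EBs, and 55.3% for EBs against MEFs. Signs turned for Lrp6 at day 1 (1), Lef1 in knockdown MEFs at day 1 (3), and Wnt5b (1), Wnt10b (1), Lef1 (4) and Lrp6 (3) for knockdown against none.

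With scores of at least 10, members called lower were 4 at day 1, 15 in day 7 Flk1-positive MEFs, 5 and 3 in knockdown MEFs at days 1 and 2 and 10 for knockdown against none, and members called higher were 5 in Flk1-positive against day 7 MEFs and 0 in knockdown MEFs at day 7. The gained share was 3.85%, 1.27%, 0% and 2.94% in MEFs, 100% for Flk1-positive against day 7, 6.25% and 100% in knockdown MEFs at days 1 and 7, 14% for knockdown against none, 36.9%, 9.18% and 14.9% in EBs, and 73% for EBs against MEFs. Signs turned for Fzd8 (-1, -3 and -3 at days 1 and 2 and in Flk1-positive MEFs), Fzd7 at day 1 (-2), Wnt10b (1) and Tcf7 (-1) for knockdown against none, Fzd9 in induced EBs (-1) and Lrp6 in EBs against MEFs (1). Start summits were then found for 7, 6, 3 and 1 members in uninduced, day 1, day 2 and day 7 MEFs, for 5, 5, 3, 6, 5, 0 and 0 in the knockdown lists and for 13, 9, 8 and 12 in the floxed samples. The share of nuclear factors and targets in uninduced MEFs was 0.0186%. The difference between floxed samples with and without 4OHT was -1, -5.5, -2.5 and -9 for ligands, receptors, nuclear factors and targets, and all members. A fixed cut removes a larger part of a list with lower scores. The median score was 10.7 in uninduced MEFs and 9, 6.2 and 5.8 at days 1, 2 and 7. The values at this cut therefore do not compare like parts of the lists.

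A 10 kb window, which holds fewer summits, gave shares of 0.0774%, 0.0661% and 0.0145% for the 3 classes in uninduced MEFs and 0.122%, 0.0480% and 0.0374% in uninduced EBs. Members called lower were 7, 16, 18 and 15 in MEFs, 6 and 5 in knockdown MEFs at days 1 and 2, 12 for knockdown against none and 11 in Flk1-positive against uninduced EBs, and those called higher 6 in Flk1-positive against day 7 MEFs and 1 in knockdown MEFs at day 7. The gained share was 71.6% for EBs against MEFs. Wnt9b in induced EBs and Fzd5 in EBs against MEFs turned to 1. The floxed difference was -4 for receptors, -3.5 for nuclear factors and targets and -20 for all members. With 1 summit per peak the ligand share in uninduced EBs was 0.141%, 7 members were lower in knockdown MEFs at day 1, 4 in induced EBs, and 1 higher in knockdown MEFs at day 7, and the gained share was 59.0% for EBs against MEFs. Wnt5b and Wnt9b in induced EBs turned to 2, and Wnt3 and Wnt9b in Flk1-positive EBs to -3. Matching within 100 bp gave gained shares of 14%, 20.4%, 30.1%, 36.4% and 36.7% (MEF day 2 and Flk1-positive, knockdown day 1, and both comparisons of Flk1-positive EBs), and within 500 bp 25.9%, 4.96%, 6.82% and 16% (MEF day 1 and Flk1-positive, knockdown day 1, knockdown against none). A net of at least 1 called 23 members at day 1, 21 in Flk1-positive against day 7 MEFs, 21, 17 and 5 in knockdown MEFs, and 31 in Flk1-positive against induced EBs.

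Without 1 replicate of each group the floxed difference ranged from -33 to -7 for ligands. The cause of these changes was not tested beyond what each setting removes. The higher calls of Lef1, Axin2, Sp5 and Tcf7 in EBs against MEFs held under each setting run. List length, which may differ with depth and for other reasons, limits every comparison of counts, and a site missing from a short list may still be open.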
